A study of Mus musculus with 6 samples.

Results

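Myosin light chains are small proteins that wrap the neck of a myosin heavy chain, and 6 genes of this family were followed in pro-B cells with and without Skiv2l. They were taken by gene name (Myl4, Myl6, Myl9, Myl10, Myl12a and Myl12b) from tables of 54752 gene identifiers, and all 6 were found, each on 1 identifier. Myl4 and Myl10 were picked because of how they differed between the genotypes in these libraries, so the values of the 6 genes below are a description with no test. Pro-B cells, the precursors that rearrange the immunoglobulin heavy chain locus, were sorted by flow cytometry from the bone marrow of adult C57BL/6 mice. The 3 control mice carried floxed Skiv2l alleles (genotype Skiv2lfl/fl, with no Cre named). The 3 Skiv2l-deleted mice, called deleted mice below, carried the same floxed alleles and Cre recombinase from the B lineage gene Cd79a (genotype Skiv2lfl/fl-Cd79a-Cre). Each mouse gave 1 messenger RNA library. The Skiv2l protein is the RNA helicase that, with its SKI partners, threads messenger RNA into the cytosolic exosome for decay, so the comparison asks what changes in pro-B cells that lose it. Cre is named only in the Skiv2l-deleted mice, so an effect of Cre and an effect of the deletion cannot be told apart.

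A myosin II molecule has a pair of heavy chains, and each heavy chain neck binds an essential light chain, which stiffens the lever arm, and a regulatory light chain, which carries the phosphorylation switch. Myosin light chain kinase phosphorylates the regulatory chain and turns the motor on, and myosin phosphatase reverses this. Myl6 (essential) and Myl12a and Myl12b (regulatory) are the light chains of nonmuscle myosin II in most cells. Myl9 is the regulatory chain of smooth muscle and platelets. Myl4 is an essential chain best known from embryonic muscle and heart atria. Myl10 is a regulatory chain known from precursor lymphocytes, where interleukin 7 (IL-7), the growth factor of early B cells, has been described to raise it.

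The coding sequences show how separately the genes of each class can be read out. Stretches of 60 coding bases from the end part of the genes are shown, taken from the GENCODE M21 transcripts (GRCm38). They show where reads of 1 light chain differ from those of a relative, except for Myl12a and Myl12b, which are alike there. Capitals mark bases that are not alike in all genes of a set, and positions count from the first base of the start codon. The first set holds the essential chains Myl4 (bases 520 to 579) and Myl6 (394 to 453), which differed at 19 of the 60 bases.
Myl4: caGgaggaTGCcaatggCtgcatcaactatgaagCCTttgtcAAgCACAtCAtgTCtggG
Myl6: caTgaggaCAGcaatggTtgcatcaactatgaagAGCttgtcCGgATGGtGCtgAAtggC
The second set holds Myl10 (bases 382 to 441) and its nearest relative among the light chains examined, Mylpf (442 to 501), the regulatory chain of fast skeletal muscle, which differed at 13 bases.
Myl10: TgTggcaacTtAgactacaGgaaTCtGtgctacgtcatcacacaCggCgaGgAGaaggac
Mylpf: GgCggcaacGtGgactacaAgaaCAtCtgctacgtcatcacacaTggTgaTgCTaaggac
The third set holds Myl12a, Myl12b and Myl9 (bases 457 to 516 in each). Myl12a and Myl12b were identical here and Myl9 differed from them at 9 bases.
Myl12a: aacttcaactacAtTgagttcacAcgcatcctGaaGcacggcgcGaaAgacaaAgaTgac
Myl12b: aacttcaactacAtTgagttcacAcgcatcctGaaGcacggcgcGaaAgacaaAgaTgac
Myl9: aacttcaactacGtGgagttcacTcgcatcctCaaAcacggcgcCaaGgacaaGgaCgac

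Translated and aligned with overhanging ends left free, the Myl4 and Myl6 proteins were identical at 70.9% of 151 aligned residues. Residues without a partner were left out of these shares, as in Myl4, which has 193 residues against 151 in Myl6. Myl10 matched Mylpf at 76.2% of 147 residues, Myl9 at 59.6% of 146 and Myl12a at 57.5% of 146. Myl12a and Myl12b differed at 4 of 172 residues (97.7% identity), and Myl9 and Myl12a at 10 of 172. Myl4 and Myl10, from different classes, shared 32.1% of 140 aligned residues. At the level of a read, every 75-base window of the coding transcripts was looked up in all other GENCODE transcripts on both strands. None of the 1611 windows of Myl4, the 1010 of Myl10 or the 1054 of Myl9 occurred in another gene. Of the 2072 windows of Myl6, 11.0% occurred elsewhere, led by Gm5526. In Myl12a 21.7% of 2929 windows were shared, and in Myl12b 29.8% of 2235. For both genes the largest share lay in AC154187.2, an annotated gene whose transcripts start in Myl12a and run on through Myl12b, and which was listed at 0 in all 6 libraries. Of the Myl12b windows, 2.86% occurred in Myl12a itself. How reads that also match AC154187.2 were assigned is not given, so the levels of Myl12a and Myl12b are uncertain to that extent. The separation of Myl12a from Myom1, which overlaps it, is also uncertain. By the same lookup, Myl4 and Myl10 do not share this limit.

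Each library rested on 1.74 to 2.40 Gb of aligned sequence and held 12975 to 13738 genes at 1 FPKM or more (FPKM, fragments per kilobase of transcript and per library size, a level that is per transcript length). Skiv2l stood at 25.4, 20.2 and 46.3 FPKM in control mice against 9.53, 16.1 and 10.9 FPKM in deleted mice, without overlap (log2 fold change -1.21 ± 0.32 SE, limma adjusted p = 0.063, which did not pass the threshold of 0.05, although it did from TPM, with median-ratio scaling and without control mouse 3 and deleted mouse 2). Which exons are floxed is not given in the sources used, so this level checks the genotype labels only in part. Cd79a, the gene that drives Cre, fell from 640 to 739 FPKM in controls to 367 to 441 FPKM (limma adjusted p = 0.0123). That call was lost without control mouse 1 or deleted mouse 1 (adjusted p up to 0.0702). It was also lost with no filter on low values (limma adjusted p = 0.0527) and with the replicate block (limma adjusted p = 0.0504). Over the 13539 genes tested, limma called 8.84% at an adjusted p below 0.05, 4.97% as higher and 3.87% as lower in deleted mice, and in 32.2% the 3 control and 3 deleted mice did not overlap. The pro-B markers Vpreb1, Igll1 and Dntt were high in every library, while the pro-B marker Kit was low. Kit stood at 3.28 to 8.06 FPKM in control mice against 11.0 to 14.8 FPKM in deleted mice. Of 15 pro-B markers 9 were called higher in deleted mice and 1, Cd79a itself, lower. Their summed level was 3096 to 4278 FPKM in control mice against 4786 to 5984 FPKM in deleted mice. Of 11 tested pre-B and later B markers 9 were called lower (sums of 815 to 988 against 393 to 478 FPKM). Of 6 tested plasma cell markers 4 were called lower (sums of 445 to 625 against 127 to 152 FPKM). Jchain, Igha and Ighg1 among the plasma cell markers, and Fcer2a among the later B markers, stayed under 1 FPKM in every deleted mouse. They passed the filter of 1 FPKM in at least 3 libraries only through the controls, which favours lower calls in these counts. With 1 library left out, 0 to 9 pro-B markers were called higher, fewest without deleted mouse 1 or deleted mouse 3. In the same fits 3 to 8 pre-B and later B markers and 0 to 4 plasma cell markers were called lower. Both counts were lowest without control mouse 1 or control mouse 2. With any control left out, however, Jchain, Igha, Ighg1 and Fcer2a no longer passed the filter. Only 10 pre-B and later B markers and 3 plasma cell markers were then tested. Each of these 4 genes was called lower in all 8 alternatives in which it was tested. Control mouse 3 and deleted mouse 2 stood apart by their myeloid markers (1265 and 2252 FPKM, against 83.0 to 405 FPKM in the other 4 libraries). These shifts accompany the light chain values below, and their part in those values was not tested. In bulk RNA, fewer cells that express a gene and less of its RNA per cell cannot be told apart.

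Myl4 (ENSMUSG00000061086.12, GRCm38 chr11:104550663-104595753, plus strand) was by FPKM the most abundant of the 6 genes in 2 of the 3 control libraries. It stood at 365, 379 and 363 FPKM in control mice against 48.8, 56.8 and 46.4 FPKM in deleted mice. The controls lay within a narrow band, and every deleted mouse lay far below it. The means were 369 ± 8.41 and 50.7 ± 5.44 FPKM (SD, n = 3 mice each), a level 7.28-fold lower in deleted mice, and the log2 fold change was -2.85 ± 0.11 (SE), where log2 fold changes are differences of log2(FPKM + 1), Skiv2l-deleted minus control. Only 21 of the 13539 genes tested were lower by more on that scale, while the median gene moved by 0.058. By level, Myl4 ranked between 166 and 207 among all genes in the controls and between 1798 and 2159 in deleted mice. It was thus a strongly expressed gene in the control libraries and a moderately expressed one in the libraries of deleted mice. Of the 2 libraries with high myeloid markers, control mouse 3 was the lowest control by a small margin and deleted mouse 2 the highest of its group.

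Myl6 (ENSMUSG00000090841.2, chr10:128490860-128494145, minus strand), the essential chain of most cells, stood at 284, 287 and 445 FPKM in control mice against 316, 413 and 331 FPKM in deleted mice. The groups overlapped, and the highest library of each was the one with the high myeloid markers, control mouse 3 and deleted mouse 2. The means were 339 ± 92.2 and 353 ± 52.1 FPKM, and the log2 fold change was 0.08 ± 0.20 (SE), smaller than its error.

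Among the regulatory chains, Myl10 (ENSMUSG00000005474.9, chr5:136693146-136701094, plus strand) differed in the other direction from Myl4. It stood at 6.77, 5.60 and 16.3 FPKM in control mice against 63.3, 79.3 and 66.2 FPKM in deleted mice. Control mouse 3 lay above the other controls, yet well below every deleted mouse. The means were 9.57 ± 5.90 and 69.6 ± 8.53 FPKM (SD, n = 3 mice each), a level 7.27-fold higher in deleted mice, with a log2 fold change of 2.87 ± 0.35 (SE). Only 2 of the genes tested were higher by more. Without control mouse 3 and deleted mouse 2 the log2 fold change was 3.20, and without control mouse 3 alone it was 3.30. By level, Myl10 ranked between 5663 and 9153 in the controls and between 1226 and 1482 in deleted mice.

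Myl12a (ENSMUSG00000024048.15, chr17:70993656-71002878, minus strand) differed least between the genotypes. It stood at 88.01, 72.3 and 73.8 FPKM in control mice against 75.9, 77.8 and 77.6 FPKM in deleted mice. The groups overlapped, with means of 78.1 ± 8.66 and 77.1 ± 1.05 FPKM and a log2 fold change of -0.01 ± 0.11 (SE). Myl12b (ENSMUSG00000034868.9, chr17:70973133-70990890, minus strand), its neighbour on the chromosome, stood at 73.6, 58.8 and 83.2 FPKM in control mice against 43.5, 72.4 and 56.3 FPKM in deleted mice. Again the groups overlapped, with means of 71.8 ± 12.3 and 57.4 ± 14.4 FPKM and a log2 fold change of -0.33 ± 0.21 (SE).

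Myl9 (ENSMUSG00000067818.6, chr2:156775420-156781658, plus strand) was the only member that failed the filter on low values, at 1 FPKM or more in at least 3 libraries, so 5 of the 6 entered the fit. It was listed at 0.176, 0.184 and 0.118 FPKM in control mice against 0.989, 0.587 and 0.569 FPKM in deleted mice. The groups did not overlap, but all values were low, with a mean coverage of 0.200 to 0.335 reads per base in the controls and 1.14 to 1.79 in deleted mice. The means were 0.159 ± 0.0360 and 0.715 ± 0.238 FPKM, a ratio of 4.49. In 3 of the 6 members (Myl4, Myl9 and Myl10) the groups did not overlap, beside 32.2% of all genes tested, and because the genes were chosen on this comparison nothing is read from that count.

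**Figure D1:**
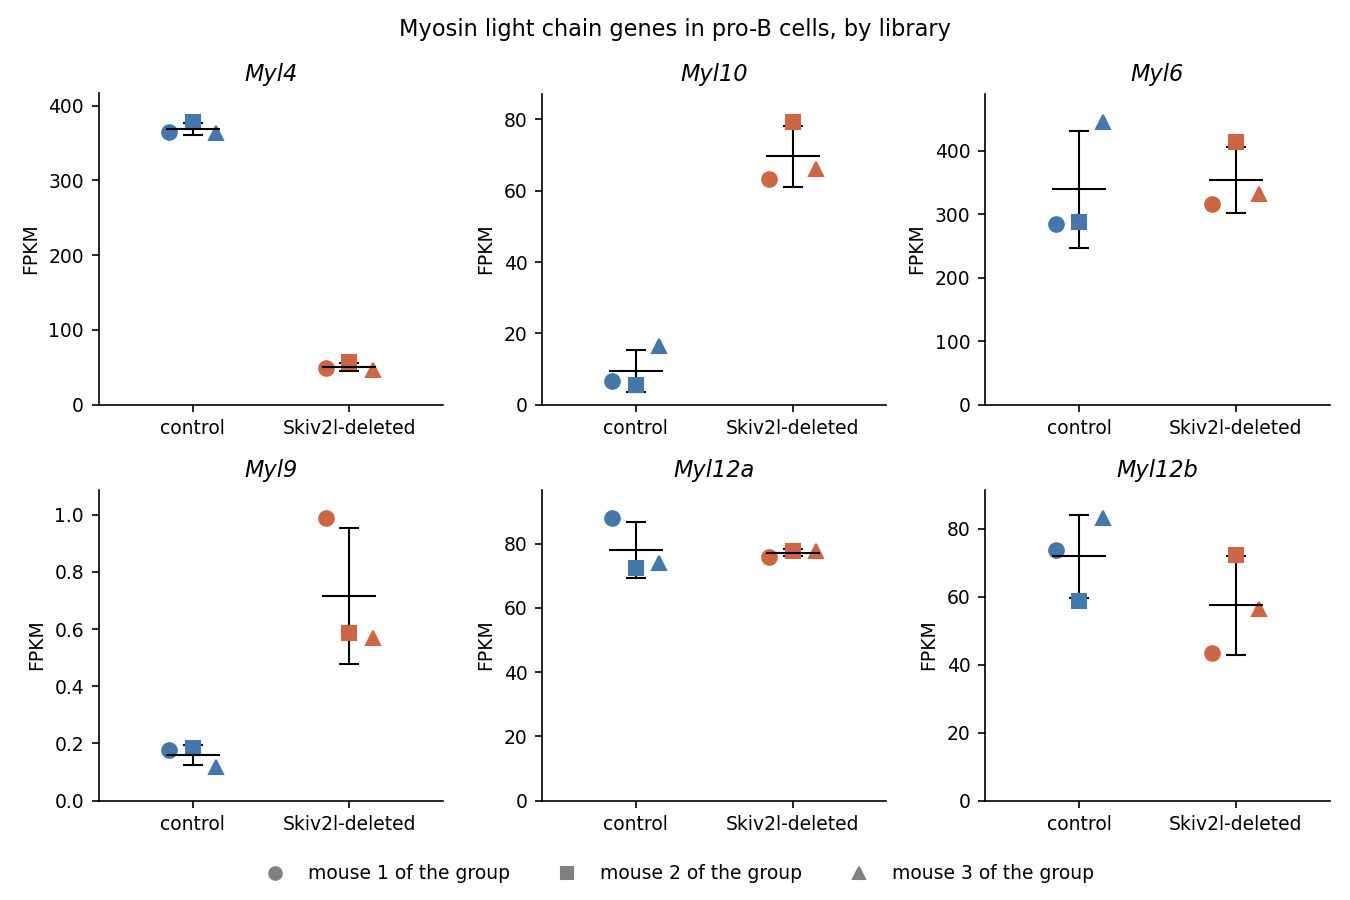
FPKM (vertical axes, each starting at 0) of the 6 light chain genes in control and Skiv2l-deleted pro-B cells. Points are single mice, the symbol giving the mouse number within its group, and bars are the mean with the SD of 3 mice. Myl4 lies at 363 to 379 FPKM in control mice against 46.4 to 56.8 FPKM in deleted mice, Myl10 and Myl9 lie higher in deleted mice, and the groups of Myl6, Myl12a and Myl12b overlap.

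Because FPKM is per transcript length, the genes of a class can be set side by side as shares of its summed level. The listed coverage ordered some genes otherwise, so the shares hold for FPKM only. By coverage, Myl6 stood above Myl4 in the controls (125 to 175 against 95.8 to 109 reads per base). Myl12b stood above Myl12a in every library (78.1 to 104 against 33.2 to 40.1 reads per base in the controls). In the controls, Myl4 made up 55.9%, 56.5% and 44.6% of the essential light chain FPKM, and in deleted mice 13.2%, 11.9% and 12.1%. Myl6 took up most of the remainder, with 47.0% ± 6.68 in controls and 86.1% ± 0.713 in deleted mice (SD, n = 3 each). The essential chain pool therefore went from one shared by Myl4 and Myl6 to one made mostly of Myl6. The rest was Myl6b, a close relative of Myl6, with 0.610% and 1.51%. The summed level of the pool was 653, 670 and 813 FPKM in control mice against 371, 476 and 383 FPKM in deleted mice. These sums did not overlap, but they include Myl4, which was chosen on this comparison. Myl6, the other main part, overlapped between the groups, so the smaller sum is no result apart from that of Myl4.

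In the regulatory class, Myl10 made up 3.66%, 3.76% and 8.49% of the summed FPKM in control mice against 32.2%, 32.4% and 30.6% in deleted mice. Myl12a gave 44.9% ± 5.66 and 35.4% ± 3.42, and Myl12b 40.9% ± 2.06 and 25.9% ± 3.72 (SD, n = 3 each). By FPKM, Myl10 thus went from the least of the 3 to about the level of the other 2. The regulatory sum was 185, 149 and 192 FPKM in control mice against 197, 245 and 217 FPKM in deleted mice. Mylpf accounted for 8.86% and 6.69%, and Myl9 for 0.0934% and 0.335%. The essential sum was 4.09 ± 0.500 times the regulatory sum in controls and 1.87 ± 0.0876 times in deleted mice. Myl4 and Myl10, chosen on this comparison, are parts of these sums, so nothing further is read from that ratio. Myl4 stood at 53.9, 67.7 and 22.2 times the level of Myl10 in the 3 controls, and at 0.771, 0.716 and 0.701 times in deleted mice. Myl4 was the higher of the 2 genes in each control and the lower in each deleted mouse. The muscle chains Myl1, Myl2, Myl3 and Myl7 were listed at 0 in all 6 libraries.

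**Figure D2:**
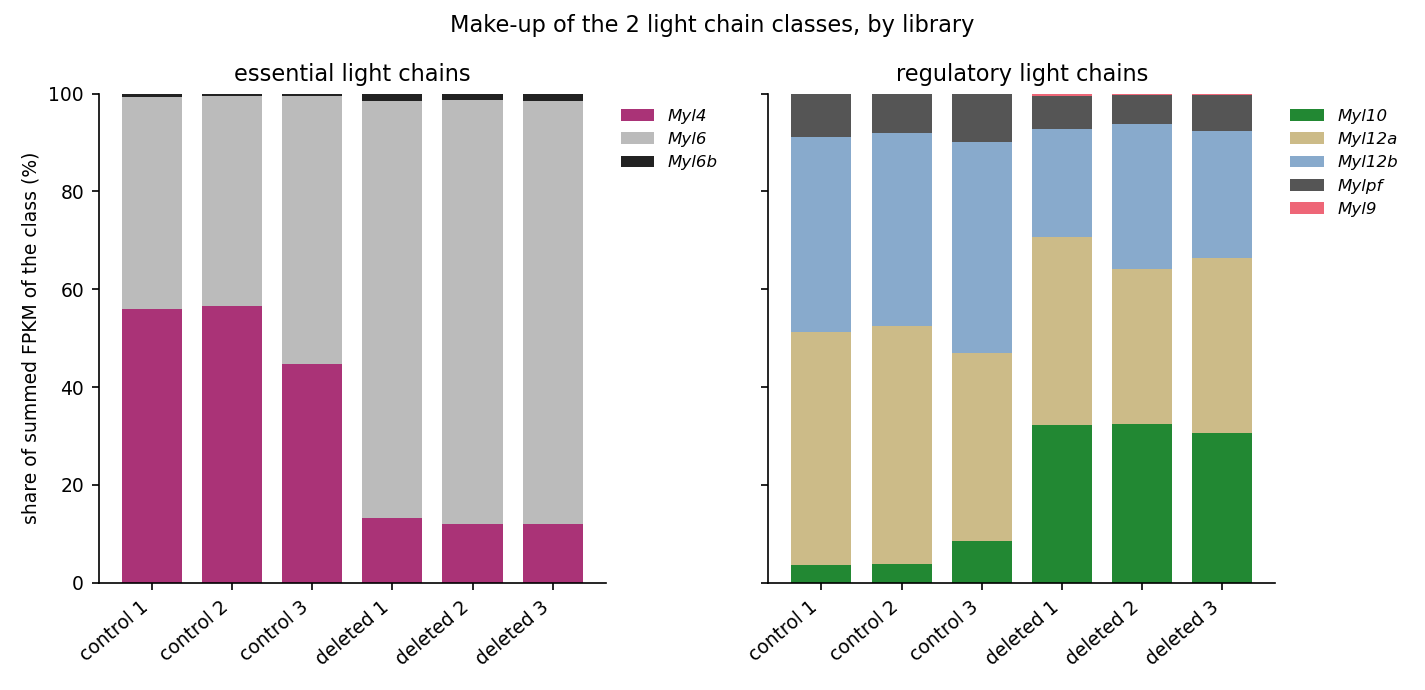
Share (vertical axis, percent of the summed FPKM of the class) of each gene among the essential light chains (left) and the regulatory light chains (right), with 1 bar per library. Myl4 takes 44.6% to 56.5% of the essential FPKM in control mice against 11.9% to 13.2% in deleted mice, and Myl10 takes 3.66% to 8.49% and 30.6% to 32.4% of the regulatory FPKM.

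Levels of Myl4 and Myl10 were then set beside markers of the tissues in which such chains are known. Of 9 cardiac muscle markers, Actc1, Nppa and Myl7 were listed at 0 in all 6 libraries, and the summed level was 5.89 to 9.67 FPKM in control mice against 5.44 to 6.40 FPKM in deleted mice, most of it Tnnt2. Myl4 exceeded that sum many times over in every library. Of 11 megakaryocyte and platelet markers 10 stayed under 1 FPKM in every library, and the sum was 2.59 to 3.81 and 2.87 to 6.16 FPKM. The defining platelet genes Pf4 and Ppbp reached at most 0.572 and 0.150 FPKM. Smooth muscle markers summed to 25.5 to 33.8 FPKM in control mice against 34.3 to 52.5 FPKM in deleted mice. Most of this was Smtn, at 23.4 to 29.7 against 30.3 to 47.4 FPKM, followed by Cnn1, at 1.48 to 2.61 against 3.33 to 4.29 FPKM. Both were without overlap between the groups and neither was called with all 6 libraries (limma adjusted p = 0.0948 and 0.128). Tagln was at 0.512 to 2.41 against 0.504 to 0.692 FPKM, Acta2 and Myh11 reached at most 0.381 and 0.0539 FPKM, and Lmod1 was listed at 0 throughout. Of 8 skeletal muscle markers, Ckm, Des and Myh4 were listed at 0, and Mylpf gave most of the sum of 13.3 to 24.99 and 16.3 to 20.3 FPKM. Markers of endothelium and stroma summed to 45.8 to 57.4 and 36.0 to 47.9 FPKM, most of it Pecam1. Erythroid markers summed to 4.93 to 17.1 FPKM in 5 libraries and to 223 FPKM in deleted mouse 2. T and NK cell markers summed to 5.76 to 18.8 FPKM in control mice against 14.1 to 44.3 FPKM in deleted mice. Of the 2 tested T and NK cell markers, Nkg7 was not called. Klrb1c, at 2.43 to 3.61 against 9.15 to 12.4 FPKM, was called higher by limma. Under each of the 12 alternatives 1 marker of this list was called higher. The part of these other cell types in the light chain values was not tested.

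The partners of the light chains were described next, as lists of heavy chains, other myosins, enzymes of the phosphorylation switch and the actin filament. Of 89 myosin and myosin regulator genes outside the 6, 88 were in the tables and 44 passed the filter. Of these 44, 2 were called higher, 2 lower and 40 not called, which is 9.09% beside 8.84% over all genes tested, and their median log2 fold change was 0.02 beside 0.06 over all genes. The share called lay near the background. At an unadjusted p below 0.05 the count was 12 of the 44, beside 3463 of all 13539 genes tested. The lists were drawn up with earlier results of these data known.

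Among class II heavy chains, the motors that the 6 light chains serve, 2 of 14 were tested. Myh9, the heavy chain of nonmuscle myosin IIA and the most abundant, stood at 79.9, 91.5 and 64.9 FPKM in control mice against 98.0, 88.5 and 93.0 FPKM in deleted mice (log2 fold change 0.25 ± 0.14 SE, limma adjusted p = 0.325). Myh10, the heavy chain of nonmuscle myosin IIB, rose from 0.839, 0.902 and 1.34 FPKM to 2.99, 1.94 and 3.08 FPKM (log2 fold change 0.85 ± 0.19 SE, limma adjusted p = 0.0399). The level of Myh10 stayed far below that of Myh9, and its call was lost without control mouse 1, control mouse 2, deleted mouse 1 or deleted mouse 3, with an adjusted p of up to 0.17. The 2 other tested light chains, Mylpf (log2 fold change -0.07) and Myl6b (0.42), were not called.

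Of 11 tested unconventional myosins, 1 fell and 10 were not called. Myo1e, a single-headed motor that links membranes to actin, fell from 9.75, 8.51 and 7.01 FPKM to 1.94, 3.76 and 3.605 FPKM (log2 fold change -1.22 ± 0.22 SE, limma adjusted p = 0.0223). Leaving out control mouse 1, control mouse 2, deleted mouse 1 or deleted mouse 3 ended that call (adjusted p up to 0.0817). The most abundant of them was Myo1c, at 96.0 to 136 FPKM in control mice against 101 to 120 FPKM in deleted mice.

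Of 12 tested kinases of the regulatory chain and their activators, 1 rose, 1 fell and 10 were not called. Cit, the citron kinase of the cleavage furrow, fell from 18.9, 21.1 and 16.3 FPKM to 12.2, 9.54 and 10.2 FPKM (log2 fold change -0.76 ± 0.15 SE, limma adjusted p = 0.0242). Cdc42bpa, a kinase downstream of Cdc42, rose from 1.09, 1.19 and 1.05 FPKM to 2.64, 2.34 and 2.05 FPKM (log2 fold change 0.66 ± 0.14 SE, limma adjusted p = 0.0347). Both calls were lost whenever a library other than control mouse 3 was left out, with adjusted p up to 0.115 for Cit and 0.166 for Cdc42bpa. The calmodulin gene Calm2 was the most abundant of the list (log2 fold change -0.37, limma adjusted p = 0.119). None of the 5 tested phosphatase genes, led in level by the inhibitor Ppp1r14b, and none of the 12 tested actin and tropomyosin filament genes, led by Actb, was called by limma. At an unadjusted p below 0.05 there were 0 of the 5 and 1 of the 12, beside 3463 of all 13539 genes tested.

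**Figure D3:**
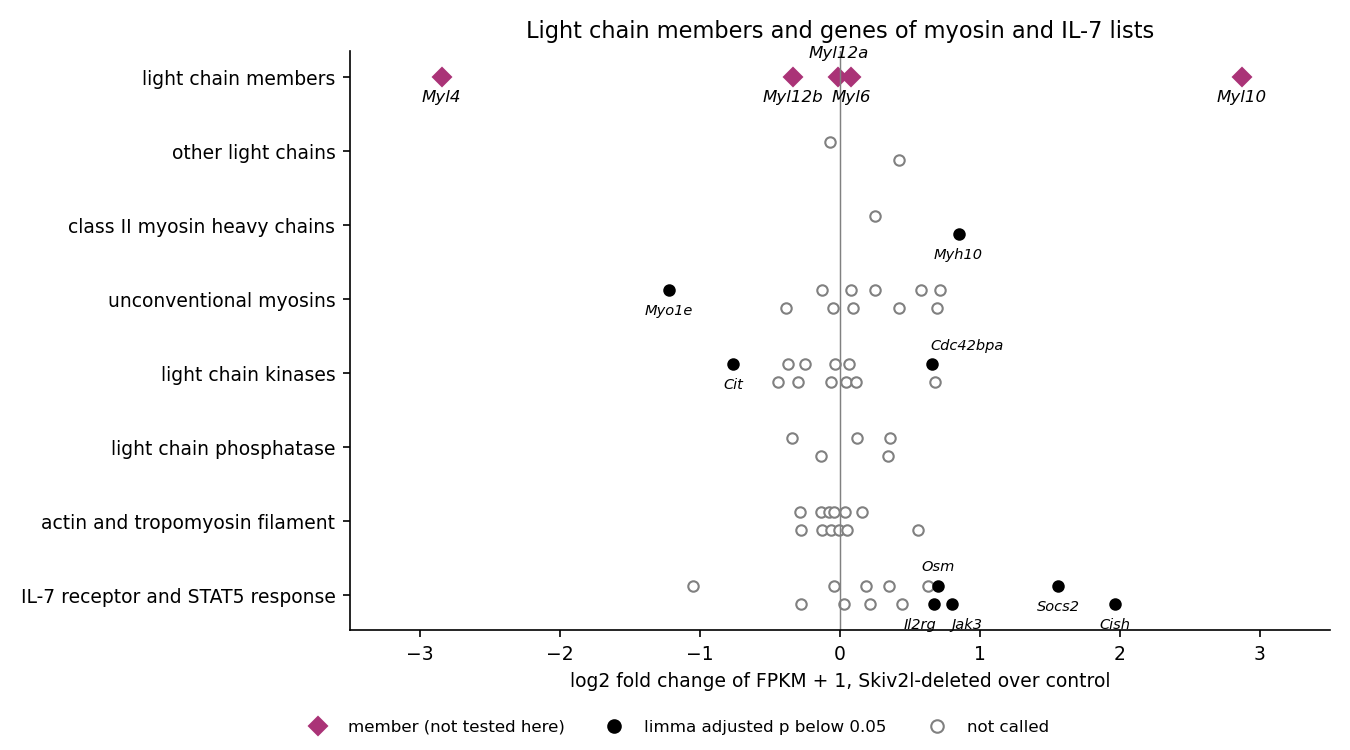
Log2 fold change of FPKM + 1 (horizontal axis, Skiv2l-deleted over control) of the 5 light chain members that passed the filter and of the tested genes of each list, 1 point per gene. Filled points are called by limma at an adjusted p below 0.05, open points are not called, and diamonds are the members, described without a test. Myl4 and Myl10 lie near -2.85 and 2.87, outside the range of the other myosin genes.

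IL-7 is the signal with which Myl10 is linked in precursor B cells, so genes of its receptor and of the STAT5 response were listed beside it. All 14 were tested, and 5 rose, 0 fell and 9 were not called, beside 4.97% of all genes called higher and a median log2 fold change of 0.40 in the list. Socs2, a STAT5 target that damps cytokine signals, rose from 13.1, 9.83 and 11.2 FPKM to 31.3, 33.4 and 42.1 FPKM (log2 fold change 1.56 ± 0.16 SE, limma adjusted p = 0.00493). Socs2 was called whichever library was left out. Cish, another such target, rose from 5.28, 1.20 and 4.59 FPKM to 15.3, 12.02 and 20.6 FPKM (log2 fold change 1.96 ± 0.41 SE, limma adjusted p = 0.032), and this call was lost without control mouse 1 or any 1 of the deleted mice (adjusted p up to 0.124). The receptor chain Il2rg (log2 fold change 0.67) and its kinase Jak3 (0.80) also rose, as did the cytokine gene Osm (0.70), with limma adjusted p of 0.0119, 0.0163 and 0.0402. Without deleted mouse 1 or deleted mouse 3 the calls of Il2rg and Jak3 were lost (adjusted p up to 0.0709 and 0.0905), and that of Osm was lost without any 1 library other than control mouse 3 (up to 0.175). Il7r itself, the most abundant gene of the list, stood at 198, 133 and 111 FPKM in control mice against 116, 120.5 and 115 FPKM in deleted mice (limma adjusted p = 0.453). Socs1, a feedback inhibitor of JAK kinases, stood the other way, with 4.92, 5.17 and 8.78 FPKM in control mice against 1.79, 3.38 and 2.28 FPKM in deleted mice, without overlap. Its log2 fold change was -1.05 ± 0.26 (SE), and its limma adjusted p of 0.050045 just missed the threshold. It was called lower from TPM (0.0401), with median-ratio scaling (0.04) and without control mouse 3 and deleted mouse 2 (0.0207), and not under the 9 other alternatives (up to 0.182).

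The positions of Myl4 and Myl10 were examined for differences shared with nearby genes. Myl4 starts back to back with Cdc27, a subunit of the anaphase-promoting complex on the minus strand, and 42 bases lie between the 2 annotated genes. That stretch is shown because it lies between a gene that differed 7.28-fold and one that differed by much less. It reads 5′ to 3′ on the plus strand of chr11:104550621-104550662 (GRCm38.p6, RefSeq), with a GC content of 66.7%.
Myl4 and Cdc27 gap: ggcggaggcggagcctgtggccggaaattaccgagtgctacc
Cdc27 stood at 30.1 ± 9.40 FPKM in control mice against 24.4 ± 2.19 FPKM in deleted mice (log2 fold change -0.24 ± 0.24 SE, limma adjusted p = 0.583). Without control mouse 3 it was called lower, in the direction of Myl4 (log2 fold change -0.53, limma adjusted p = 0.0315), as it was without control mouse 3 and deleted mouse 2 (-0.49, limma adjusted p = 0.0462). On the other side Itgb3, an integrin chain 12247 bases beyond the end of Myl4, stood at 2.15 ± 0.596 and 2.71 ± 1.20 FPKM (limma adjusted p = 0.696). Of the 23 genes within 500 kb of Myl4, 3 were tested, and with all 6 libraries limma called 0 of them, also 0 at an unadjusted p below 0.05. Among the 23, 4 genes overlap Myl4 in the annotation, and the highest value of any of these 4 in 1 library was that of Gm11663, at 0.299 FPKM.

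Around Myl10, 28 genes lie within 500 kb and 12 were tested. The nearest tested genes were Cux1, a homeobox factor gene 125656 bases before it (log2 fold change 0.20 ± 0.14 SE, limma adjusted p = 0.435), and Gm20485, 162543 bases after it (0.57 ± 0.21 SE, limma adjusted p = 0.144). Ift22, an intraflagellar transport gene 207056 bases away, fell from 25.4 ± 1.91 to 14.8 ± 1.82 FPKM (log2 fold change -0.75 ± 0.13 SE, limma adjusted p = 0.0184), opposite in direction to Myl10. Its call was lost when any library other than control mouse 3 was left out (adjusted p up to 0.085). Without control mouse 3, Gm20485 was called higher, in the direction of Myl10 (log2 fold change 0.76, limma adjusted p = 0.0298).

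**Figure D4:**
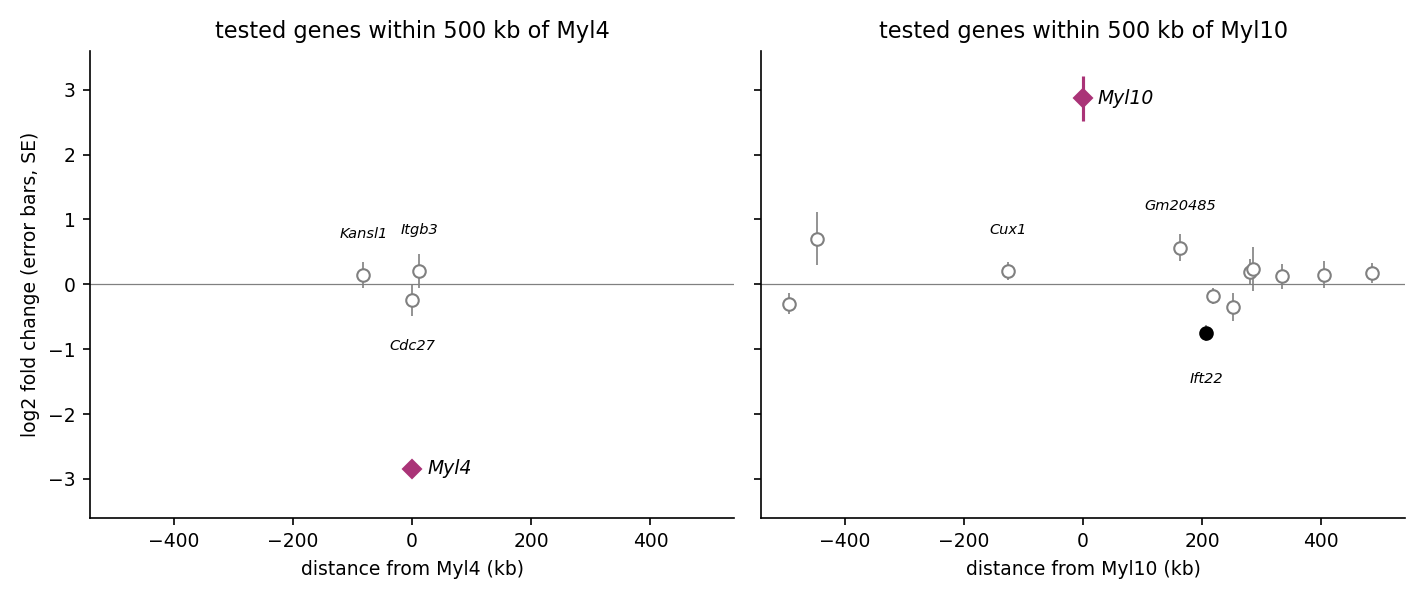
Log2 fold change of FPKM + 1 (vertical axis, bars are SE) against distance in kb (horizontal axis) for the tested genes within 500 kb of Myl4 (left) and Myl10 (right). The filled point is Ift22, called by limma, open points are not called, and diamonds are Myl4 and Myl10 themselves. Cdc27 sits beside Myl4 at -0.24, and the 12 neighbours of Myl10 lie between -0.75 and 0.70.

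The 250 bases before the first start of Myl10 are shown as the stretch just upstream of the member that was higher. They are from RefSeq (GRCm38.p6, chr5:136692896-136693145, plus strand), read 5′ to 3′, and hold none of the motifs searched, so no base is in capitals.
Myl10 upstream: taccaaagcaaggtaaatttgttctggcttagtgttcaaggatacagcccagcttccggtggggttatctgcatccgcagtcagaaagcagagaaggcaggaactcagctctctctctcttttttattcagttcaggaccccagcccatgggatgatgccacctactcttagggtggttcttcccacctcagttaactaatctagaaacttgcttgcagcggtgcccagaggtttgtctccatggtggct
RefSeq windows of 300 bases (250 before and 50 after a start) were matched for all 6 members, 9 windows in all since Myl10 has 3 and Myl6 has 2. They were searched on both strands for the E-box CANNTG and its form CAGCTG, the STAT motif TTCNNNGAA, the ATF4 motif TGATGNAA, the EBF1 motif (TCCC and GGGA with 2 bases between them) and the CArG box of serum response factor. The 3 windows of Myl10 held no STAT, ATF4, EBF1 or CArG match, and 2 E-boxes lay just after its first start. The window of Myl4 held none of the 6 motifs. Of all 32851 windows, 72.3% held an E-box, 16.3% the CAGCTG form, 8.3% the STAT motif, 4.0% the ATF4 motif, 0.9% the EBF1 motif and 1.6% a CArG box. The window of Myl12a held 3 E-boxes, 1 of them CAGCTG, and a CArG box lay in the second window of Myl6 and in that of Myl9. A match is a run of letters and does not show binding. The CArG box of Myl9 begins 161 bases before the start and is printed because it is the only such box in a member whose groups did not overlap. It stands in capitals within chr2:156775288-156775327 (plus strand, GRCm38.p6).
Myl9 CArG box: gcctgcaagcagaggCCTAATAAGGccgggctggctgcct

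To see which genes followed the same course over the 6 libraries, each tested gene was centred on its mean log2(FPKM + 1) and compared with Myl4 and with Myl10 by the root mean square difference. Closest to Myl4 were Igkv5-45 (0.131), Ighg3 (0.164), Ighv1-55 (0.263), Igkv4-61 (0.309) and Ighv1-42 (0.31), which are variable or constant segments of the immunoglobulin loci. They were much less abundant than Myl4, with Igkv5-45 at 8.69, 10.6 and 11.1 FPKM in control mice against 0.323, 0.801 and 0.545 FPKM in deleted mice. Ighg3, the constant region of IgG3, stood at 6.04, 7.96 and 7.72 FPKM in control mice and was listed at 0 in all 3 deleted mice. Igkv5-45 and Ighg3 stayed under 1 FPKM in every deleted mouse and passed the filter only through the controls. Their closeness to Myl4 rests on the pseudocount of 1, which understates changes of low genes. By mean FPKM, Igkv5-45 was 18.2-fold lower in deleted mice, against 7.28-fold for Myl4. With a pseudocount of 0.1 in place of 1, 0 of these 5 genes stayed among the closest to Myl4, and from TPM 1 did.

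Closest to Myl10 were Serpina3f (0.362), Serpina3g (0.401), Asns (0.451), Trib3 (0.463) and Rnase12 (0.477). Serpina3f, a serine protease inhibitor, stood at 5.02, 1.82 and 5.39 FPKM in control mice against 23.8, 40.5 and 27.2 FPKM in deleted mice, highest like Myl10 in deleted mouse 2. Asns, the asparagine synthetase, went from 0.918, 1.43 and 2.17 FPKM to 27.5, 24.6 and 27.6 FPKM. Rnase12, a ribonuclease family gene, was the one of the 5 that like Myl10 stood out in control mouse 3, with 8.59, 5.74 and 16.2 FPKM in controls against 42.2, 41.8 and 34.7 FPKM. With the pseudocount of 0.1, 2 of the 5 remained, and from TPM 4 did. These lists describe 6 libraries in 2 groups and carry no test.

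**Figure D5:**
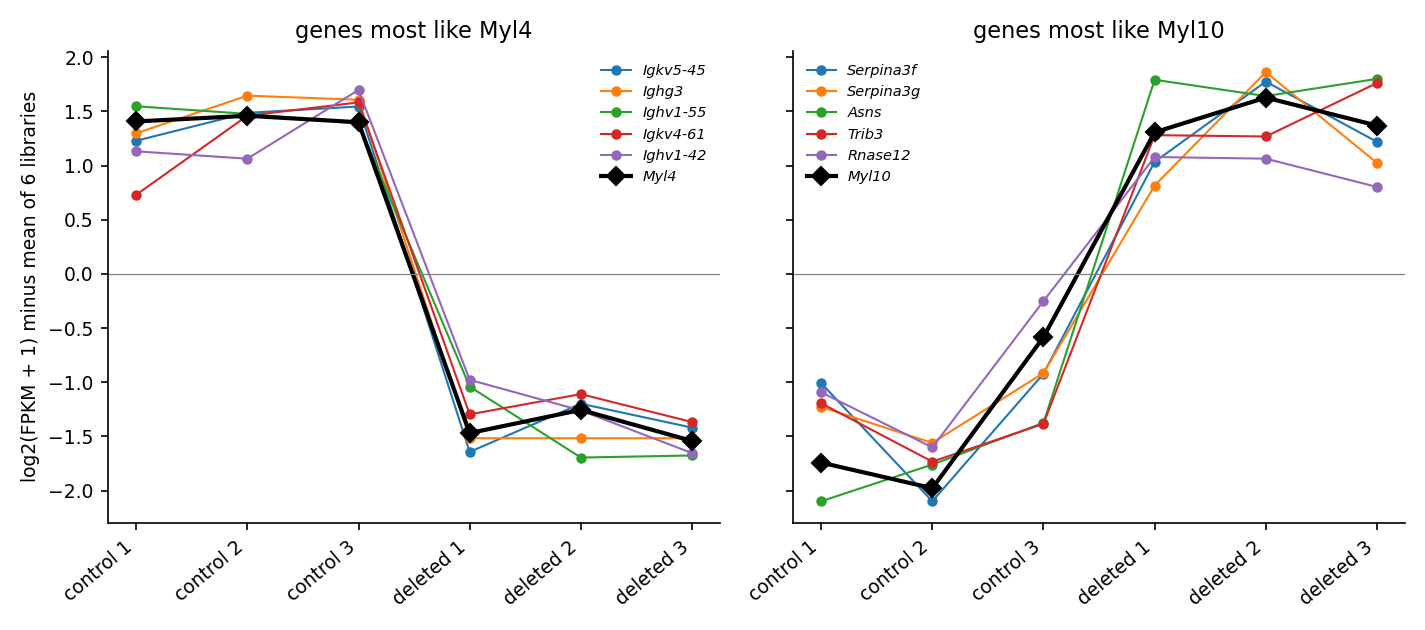
Log2(FPKM + 1) minus the mean of the 6 libraries (vertical axis) in each library (horizontal axis) for Myl4 (left, black) and Myl10 (right, black) with the 5 genes closest to each. Lines join libraries for the eye only. The genes beside Myl4 are high in the 3 controls, and those beside Myl10 are high in the 3 deleted mice.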

How the data were processed

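Strand-specific messenger RNA libraries were made from column-purified RNA, per the labels' protocols. For every mouse the authors deposited a table of FPKM, TPM and coverage by gene, per the file headers. Positions are on GRCm38, per the submitters' processing notes. How reads were aligned and quantified, and whether strand was used, was not given in the sources used here. Overlapping genes are uncertain for that reason. Identifiers that stood on several lines (7 to 9 per table) were summed. Aligned bases were worked out from the ratio of FPKM to coverage in genes with 1 transcript. The tables hold no counts.

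The 13539 genes that reached 1 FPKM in 3 or more libraries were fitted in R 4.3.3 with limma 3.58.1 (lmFit, then eBayes with trend, two-sided). The values were log2(FPKM + 1), with a pseudocount of 1 and genotype as the only term. The scale understates changes of low genes. Benjamini-Hochberg adjustment ran over all genes tested, with a threshold of 0.05, and the script was tested on simulated data. Nothing in the labels pairs mice of the same number, and the deviations of same-numbered libraries from their group means correlated at 0.094, -0.428 and -0.355, so no block was used. Between libraries of different number the correlations ran from -0.432 to 0.557. The highest were control mouse 3 with deleted mouse 2 (0.557), control mouse 2 with deleted mouse 1 (0.488) and control mouse 1 with deleted mouse 3 (0.413). The replicate block among the alternatives follows the mouse numbers, and a block on those other pairs was not fitted.

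The members and the gene lists were chosen with earlier results of these data known. Named genes were the 6 members, Skiv2l, Cd79a, and the called genes of each myosin or IL-7 list (at most 6) with its most abundant gene. The nearest tested neighbours, the most abundant gene of some marker lists, and the 5 genes closest to Myl4 and to Myl10 were also named. Other genes named were picked after their values were seen. Protein identity, planned on RefSeq proteins, was computed from GENCODE M21 coding sequences, using the first complete transcript of each gene. Alternatives were a pseudocount of 0.1, no filter, TPM, median-ratio scaling, a replicate block, each library left out, and control mouse 3 and deleted mouse 2 left out together.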

Additional observations from a re-analysis of the deposited data

How the results depend on the processing

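Under the 12 alternatives Myl4, Myl10 and Myl12b kept their direction, while the small values of Myl6 and Myl12a changed sign within their error. Log2 fold changes ran from -2.94 to -2.79 for Myl4, 2.60 to 3.30 for Myl10, -0.03 to 0.30 for Myl6, -0.06 to 0.08 for Myl12a and -0.51 to -0.15 for Myl12b. The ratio of Myl9 ran from 3.63 to 4.95, and the share of Myl10 among regulatory FPKM in controls from 3.71% to 6.13%. Counts of called genes moved more. Over all genes tested, 1197 were called, 512 with no filter on low values (28354 tested), 365 with the replicate block and 179 to 1749 with 1 library left out, lowest without deleted mouse 3 and highest without control mouse 3. Of the myosin and regulator genes 4 were called, 1 with no filter and 0 to 6 with 1 library left out. With the replicate block 0 were called. In that fit 10 of the 44 had an unadjusted p below 0.05, beside 2525 of all 13539 genes tested. Of the IL-7 and STAT5 genes 5 were called, 3 with no filter, 2 with the replicate block, 1 to 5 with 1 library left out, and 6 each (5 higher and Socs1 lower) from TPM, with median-ratio scaling and without control mouse 3 and deleted mouse 2. Of the neighbours of Myl4 and Myl10 1 was called, 0 with the replicate block (2 at an unadjusted p below 0.05), 0 to 3 with 1 library left out (1 higher and 2 lower without control mouse 3) and 2, both lower, without control mouse 3 and deleted mouse 2. Fewer samples enter the fits with a library left out, and fewer genes pass the filter (13245 to 13379). Otherwise the cause was not tested. Median-ratio scaling moved the share of calls that were higher from 56.2% to 49.1% and changed no direction of the 5 members in the fit.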
